A study of Homo sapiens with 6 samples.

Results

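The genes described here belong to the endoplasmic reticulum (ER) chaperone system and the unfolded protein response, the programme by which cells adjust protein folding capacity in the ER. A list of 36 genes was followed by symbol, and 35 of them were measured, out of 22324 genes with a transcript cluster of their own on the array. Transcript clusters are the probe groups that the array reads as genes. The missing gene is HSP90B1, whose only cluster also carries the symbol of a microRNA gene, so its value could not be assigned to it. Where a gene had several clusters, the one with the highest mean level stood for it. That applied to DNAJB11 alone, whose clusters had changes of -0.04 and -0.05.

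RNA came from subclones of the colorectal adenocarcinoma line DLD-1, an established human cell line. The labels call the groups α-Cat (3 arrays) and Δα-Cat (3 arrays). Both had been cultured for 96 h in 3D type I collagen (1 mg/ml) and received no treatment. The labels do not spell out α-Cat, and do not say how the subclones were made, how many clones they represent or whether separate cultures lie behind the arrays of a group. The p-values therefore reflect array-to-array spread alone, and that spread may be technical. All differences are Δα-Cat minus α-Cat on the log2 scale, and a call required an adjusted p under 0.05 from limma, with Benjamini-Hochberg adjustment over all 65526 clusters tested.

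Proteins that enter the secretory pathway fold in the ER with the help of HSP70-type and lectin chaperones and of disulfide isomerases. When unfolded proteins build up, the membrane sensors ATF6, IRE1 (encoded by ERN1) and PERK (encoded by EIF2AK3) are activated. Cleaved ATF6 and the spliced form of XBP1 are transcription factors that induce chaperone and degradation genes, while PERK phosphorylates eIF2α, which slows translation and favours ATF4. In the intestine the response is best known from secretory cells, which make large amounts of mucus or antimicrobial protein.

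A known mark of chaperone genes in this response is the ER stress response element in the promoter, and the sites found in the listed genes are shown first because they are what many of these genes share in sequence. Both forms of the element were searched on both strands of RefSeq promoter windows of GRCh38.p14, which run from 250 bases before to 50 after a start. The first form, ERSE, was spelled CCAAT, N repeated 9 times, then CCACG. The second, ERSE-II, was spelled ATTGG, 1 N, then CCACG and so differs from the first in spacing and orientation. Windows were found for 33 of the 36 listed genes, and 11 of the 33 held at least 1 exact match. Sites that differ in any fixed letter were not counted. ERSE was present in 0.0769% of all 35116 windows and ERSE-II in 0.0541%. In the lines that follow, capitals mark the fixed outer letters and lower case the spacer, each read 5′ to 3′ on the strand given. The ERSE sites of the measured genes were these:
HSPA5 (chr9:125241391-125241409, minus strand): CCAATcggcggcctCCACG
CALR (chr19:12938384-12938402, minus strand): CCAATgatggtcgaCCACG
CANX (chr5:179698778-179698796, plus strand): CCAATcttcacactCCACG
PDIA6 (chr2:10812853-10812871, minus strand): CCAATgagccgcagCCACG
ERO1B (chr1:236282183-236282201, plus strand): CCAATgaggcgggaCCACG
CRELD2 (chr22:49918554-49918572, minus strand): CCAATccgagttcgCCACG
XBP1 (chr22:28800603-28800621, minus strand): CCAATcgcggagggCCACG

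The ERSE-II sites were these, with HYOU1 holding 2:
HERPUD1 (chr16:56932025-56932035, plus strand): ATTGGgCCACG
SDF2L1 (chr22:21642114-21642124, minus strand): ATTGGtCCACG
HYOU1 (chr11:119057380-119057390, plus strand): ATTGGaCCACG
HYOU1 (chr11:119057274-119057284, plus strand): ATTGGaCCACG

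These 11 genes with a site include HSP90B1, whose sites are not shown because its expression was not measured. The sites shown began 52 (XBP1) to 243 (ERO1B) bases before the start, with that of HSPA5 at 66 and that of HERPUD1 at 117. A shorter element, UPRE, searched as TGACGTG on both strands, was found in HYOU1, DNAJC10 and SEC61A1 and in 1.97% of all windows, so its letters are common. In HYOU1 its letters overlap an ERSE-II site. A composite element bound by ATF4, searched as TGATGNAAT, was in 0 of the 33 windows and in 0.991% of all. The HERPUD1 window holds these letters except the last on the other strand, so the 0 covers this exact spelling alone. How many other windows hold such a near match was not counted. A match describes letters in the window, and no binding was measured.

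The 250 bases before the start are shown for HSPA5, the best known ER chaperone gene, and for HERPUD1 and ERO1B, the genes with the highest and the lowest change among those measured. Near matches, such as a stretch of HERPUD1 that lacks only the last fixed letter of ERSE, stay in lower case. They were not searched across the windows, so this stretch does not set HERPUD1 apart from other genes. Capitals mark the whole of each exact ERSE or ERSE-II match on either strand:
HSPA5 (chr9:125241344-125241593, minus strand): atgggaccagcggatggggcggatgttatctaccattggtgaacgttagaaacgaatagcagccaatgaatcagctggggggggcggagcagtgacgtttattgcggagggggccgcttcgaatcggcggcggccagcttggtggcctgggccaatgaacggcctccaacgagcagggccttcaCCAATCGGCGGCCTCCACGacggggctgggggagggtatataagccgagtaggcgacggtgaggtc
HERPUD1 (chr16:56931892-56932141, plus strand): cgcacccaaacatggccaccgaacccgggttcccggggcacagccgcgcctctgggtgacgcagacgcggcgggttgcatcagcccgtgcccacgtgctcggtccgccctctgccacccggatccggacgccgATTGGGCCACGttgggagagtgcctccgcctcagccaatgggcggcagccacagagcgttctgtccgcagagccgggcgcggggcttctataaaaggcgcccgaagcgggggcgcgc
ERO1B (chr1:236281959-236282208, minus strand): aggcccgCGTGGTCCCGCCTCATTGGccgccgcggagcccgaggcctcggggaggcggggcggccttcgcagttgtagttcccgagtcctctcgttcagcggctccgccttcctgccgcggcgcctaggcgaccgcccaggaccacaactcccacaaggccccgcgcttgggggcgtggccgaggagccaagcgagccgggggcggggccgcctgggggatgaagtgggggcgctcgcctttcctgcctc

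The deposited values spanned 1.26 to 14.24, and the median level of an array lay between 4.02 and 4.07. CTNNA1, the gene of αE-catenin, was read as the gene that α-Cat refers to. It was 6.55, 6.52 and 6.41 in Δα-Cat and 7.79, 7.68 and 7.71 in α-Cat (replicates 1 to 3), a fall of 2.35-fold (adjusted p = 0.00212, limma). Epithelial markers averaged 9.10 to 9.16 in Δα-Cat and 9.05 to 9.13 in α-Cat, with all 8 above 4.43, the 95th percentile of olfactory receptor genes that served as a background level. The fibroblast list averaged 3.75 to 3.82 in Δα-Cat and 3.76 to 3.77 in α-Cat, with 5 of 9 markers below that level. For leukocytes the averages were 4.30 to 4.48 and 4.36 to 4.40, with 3 of 9 markers below it. Endothelial markers averaged 4.48 to 4.59 and 4.58 to 4.62, with 3 of 8 below. Those of plasma cells, a highly secretory cell type, averaged 4.35 to 4.46 in Δα-Cat and 4.39 in each α-Cat array, with 4 of 8 below. None of these markers was called, where 0.623% of all genes were. At an unadjusted limma p under 0.05 there were 4 of 8 epithelial markers, 2 of 9 leukocyte markers and 0 in the other marker lists. Among all genes 13.1% reached that p, and 16.8% of those above the background level. The lowest p of each list belonged to KRT8 (change 0.23), LUM (0.11), CD14 (-0.64), PLVAP (-0.11) and SDC1 (-0.14). Cell cycle genes lay lower in Δα-Cat: all 16 had a negative change with a median of -0.34. An unadjusted limma p under 0.05 was reached by 12 of 16, more than the shares just given. None of the 16 was called, and CENPF came nearest (-0.61, adjusted p = 0.161, limma). Their mean level was 7.71 to 8.04 in Δα-Cat and 8.06 to 8.36 in α-Cat. The part of this difference in the values below was not tested. In bulk RNA, fewer cells of a state and less RNA per cell cannot be told apart.

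No member of the chaperone and unfolded protein response list was called in either direction, where 0.342% of all clusters and 0.623% of genes were called. At an unadjusted limma p under 0.05 there were 9 of 35, 6 higher and 3 lower in Δα-Cat, beside 16.8% of the genes above the background level, where all 35 lay. The groups did not overlap for 12 of 35, with 7 higher and 5 lower, beside 25.5% of the genes above the background level (13.2% higher, 12.3% lower). The change was positive in 18 of 35, and its median was 0.00, as over all genes. The median size of a change, without its sign, was 0.08 for the members and 0.07 for all genes above the background level. For 27 of 35 the 95% interval of the change lay within 1.3-fold either way. Among the genes above the background level it did for 12288 of 14779, a somewhat larger share. The changes of the list were thus centred on 0, with several genes away from it in each direction. Farthest out were HERPUD1 (0.41), XBP1 (0.28), SEL1L and ATF6 (both 0.25) above, and ERO1B (-0.38) and SEC24D (-0.27) below. The 9 and 12 genes counted above were 25.7% and 34.3% of the list, more than the shares beside them. These shares were not compared by a test.

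**Figure D1:**
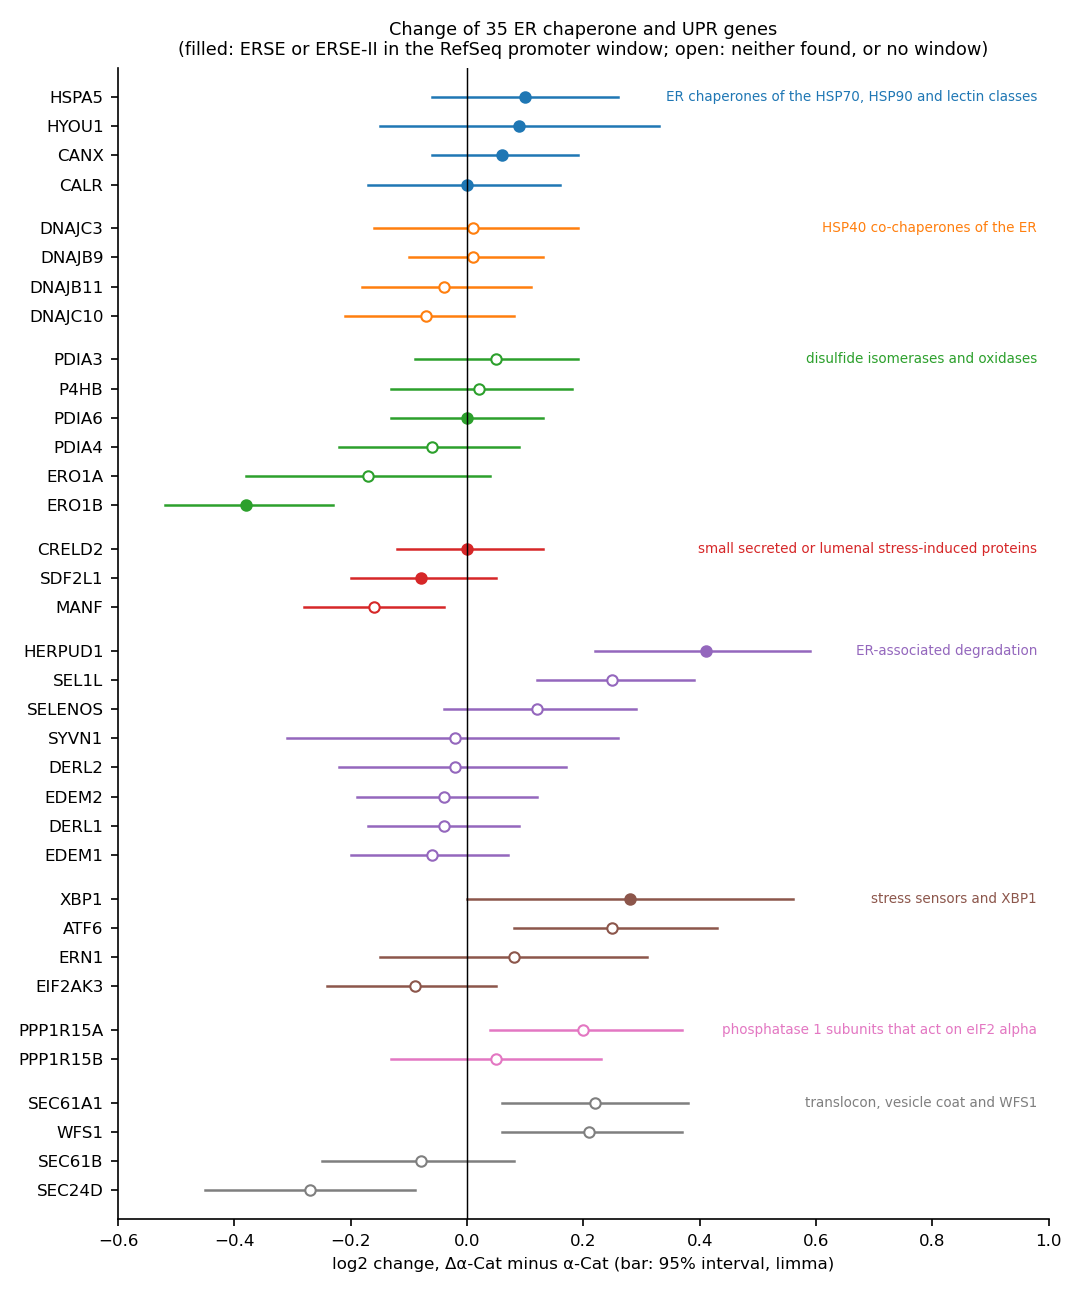
Log2 change (Δα-Cat minus α-Cat, horizontal axis) of 35 genes in blocks by role, with points for the estimate and bars for its 95% interval from limma over 6 arrays. HERPUD1 at 0.41 and ERO1B at -0.38 lie farthest from 0, and most chaperone and isomerase intervals cross 0. Filled points (promoters with an exact ERSE or ERSE-II match) lie on both sides.

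Among the chaperones, HSPA5 encodes BiP, the HSP70 chaperone of the ER lumen that also holds the sensors inactive, and it is the usual readout of this response. HSPA5 read 9.98, 10.17 and 10.01 in Δα-Cat and 9.94, 9.92 and 10.01 in α-Cat. Replicate 2 of Δα-Cat stood highest, but replicate 1 lay below the highest α-Cat array, so the groups overlapped. The change was 0.10 (SE 0.07, adjusted p = 0.718, limma), with an interval of -0.06 to 0.26, or 0.96-fold to 1.2-fold, and it became 0.05 without replicate 2 of Δα-Cat. HYOU1, a large HSP70 relative that exchanges nucleotide on BiP, had a change of 0.09 (interval -0.15 to 0.33). It was highest in the replicate 2 array of each group, at 8.65 in Δα-Cat and 8.59 in α-Cat. The lectin chaperones, which hold glycoproteins during folding, were as close: CANX (calnexin) had a change of 0.06 (interval -0.06 to 0.19), and the interval of CALR (calreticulin) ran from -0.17 to 0.16. CANX was the only gene of the 4 whose groups did not overlap, with 9.85 as the lowest Δα-Cat array and 9.84 as the highest α-Cat array.

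The HSP40 co-chaperones, which deliver clients to BiP and stimulate its ATPase, were the flattest block. None of the 4 reached an unadjusted limma p under 0.05, and all their intervals lay within 1.3-fold. DNAJB9, an IRE1 and XBP1 target, read 5.02, 4.99 and 5.04 in Δα-Cat and 5.02, 4.99 and 5.0 in α-Cat. The 6 arrays were nearly equal, and the change was 0.01 (SE 0.05, interval -0.10 to 0.13). DNAJC3, an inhibitor of PERK as well as a co-chaperone, had a change of 0.01, DNAJB11 of -0.04 and DNAJC10, a disulfide reductase, of -0.07.

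The disulfide isomerases form and rearrange disulfide bonds in the ER, and the ERO1 oxidases recharge them. The isomerases PDIA3, PDIA4, PDIA6 and P4HB had intervals that all crossed 0, and the largest size of change among them was that of PDIA4, -0.06. ERO1B, the oxidase best known from pancreas and other secretory tissue, had the smallest p of the whole list, with 4.62, 4.6 and 4.47 in Δα-Cat and 4.96, 4.97 and 4.90 in α-Cat. Every Δα-Cat array lay below every α-Cat array, and the gap between the groups exceeded the spread within them. The change was -0.38 (SE 0.06, interval -0.52 to -0.23, adjusted p = 0.0794, limma), so it did not pass over all clusters. It did pass when single-symbol clusters alone were tested (adjusted p = 0.019) and when clusters below the background level were left out (adjusted p = 0.0351). The mean level in Δα-Cat was 4.57, just above the background level. ERO1A, the widely expressed oxidase, which hypoxia also induces, read 7.82, 7.74 and 7.85 in Δα-Cat against 8.13, 7.80 and 7.98 in α-Cat. The groups overlapped through replicate 2 of α-Cat, and the change was -0.17 (SE 0.09, adjusted p = 0.614, limma). It became -0.09 without replicate 1 of α-Cat and -0.26 without replicate 2 of α-Cat. Taken between arrays of the same replicate number, the differences of ERO1A were -0.31, -0.07 and -0.13, all lower in Δα-Cat (adjusted p = 0.48, limma with the replicate block).

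Of the small stress-induced proteins, MANF is a factor secreted under ER stress, SDF2L1 forms a complex with ER co-chaperones, and CRELD2 is a secreted protein with isomerase activity. MANF read 6.30, 6.31 and 6.31 in Δα-Cat and 6.44, 6.43 and 6.51 in α-Cat. The groups were apart and the spread in Δα-Cat was an SD of 0.01. The change was -0.16 (SE 0.05, adjusted p = 0.371, limma). SDF2L1 had a change of -0.08 with groups that did not overlap, and CRELD2 an interval of -0.12 to 0.13. All 3 are known to be induced by ER stress, and here their changes ran from -0.16 to 0.00.

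ER-associated degradation takes misfolded proteins out of the ER to the proteasome. HERPUD1, a ubiquitin-like membrane protein that organises the degradation complex, had the highest change of the 35 genes. It read 7.98, 8.09 and 8.24 in Δα-Cat and 7.72, 7.64 and 7.72 in α-Cat. All Δα-Cat arrays lay above all α-Cat arrays, with replicate 3 highest. The change was 0.41 (SE 0.08, interval 0.22 to 0.59, or 1.17-fold to 1.5-fold), and the adjusted p of 0.116 from limma missed the threshold over all clusters. With single-symbol clusters alone the adjusted p was 0.0357. SEL1L, the adaptor that joins substrates to the ubiquitin ligase, read 7.06, 7.07 and 6.97 in Δα-Cat and 6.81, 6.73 and 6.79 in α-Cat. Its groups were apart as well, with a change of 0.25 (SE 0.06; adjusted p = 0.164, but 0.0428 with single-symbol clusters alone). In that smaller test 2.94% of genes were called.

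SYVN1, which encodes HRD1, the ubiquitin ligase that SEL1L holds, had a change of -0.02 with a wide interval of -0.31 to 0.26, and replicate 2 of α-Cat at 7.98 was its highest array. SELENOS, a selenoprotein that recruits the p97 ATPase, read 6.47, 6.5 and 6.37 in Δα-Cat and 6.37, 6.21 and 6.38 in α-Cat, and the groups overlapped (change 0.12, SE 0.07, and 0.07 without replicate 2 of α-Cat). The mannosidase-like proteins EDEM1 and EDEM2, which mark glycoproteins for removal, had changes of -0.06 (groups just apart) and -0.04, and the derlins DERL1 and DERL2, channel components, of -0.04 and -0.02. Within this block 3 of 8 changes were positive and the median was -0.02.

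Among the sensors, ATF6 read 7.99, 8.22 and 8.18 in Δα-Cat and 7.90, 7.90 and 7.84 in α-Cat. The groups did not overlap, although replicate 1 of Δα-Cat was close to the α-Cat arrays. The change was 0.25 (SE 0.07, adjusted p = 0.302, limma). ERN1, the RNase sensor IRE1, read 5.72, 5.93 and 6.01 in Δα-Cat and 5.72, 5.95 and 5.75 in α-Cat, with overlapping groups and a change of 0.08 (SE 0.10). EIF2AK3, the kinase PERK, read 5.53, 5.48 and 5.45 in Δα-Cat and 5.67, 5.52 and 5.54 in α-Cat. It was the only sensor with a negative change, -0.09 (SE 0.06), and its groups overlapped too. Between same-numbered arrays the differences of EIF2AK3 were -0.15, -0.04 and -0.09, again of 1 sign (adjusted p = 0.669, limma with the replicate block).

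XBP1, the transcription factor whose mRNA IRE1 splices, is itself induced by ATF6. Its levels were 8.06, 8.53 and 8.29 in Δα-Cat and 7.96, 8.11 and 7.96 in α-Cat. The Δα-Cat arrays were the more spread (SD 0.24 against 0.08), and the lowest of them lay below the highest α-Cat array. The change of 0.28 (SE 0.12, adjusted p = 0.509, limma) became 0.16 without replicate 2 of Δα-Cat. Between arrays of the same number XBP1 was higher in Δα-Cat in 3 of 3 pairs, by 0.09, 0.43 and 0.33, although the groups overlapped, and the replicate block left it uncalled (adjusted p = 0.309, limma). A cluster summed over the transcript does not separate spliced from unspliced XBP1, and the activity of the sensors, which depends on cleavage and phosphorylation, was not measured.

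PPP1R15A (GADD34) and PPP1R15B (CReP) bring phosphatase 1 to eIF2α and so restore translation. PPP1R15A, the stress-induced form, read 7.13, 7.11 and 7.21 in Δα-Cat and 6.91, 7.06 and 6.86 in α-Cat. Its groups were apart, with replicate 2 of α-Cat nearest to the other group, and the change was 0.20 (SE 0.07, adjusted p = 0.394, limma). PPP1R15B, the constitutive form, had a change of 0.05 and overlapping groups.

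The remaining genes serve entry into and exit from the ER. SEC61A1 is the pore of the translocon and read 9.40, 9.46 and 9.25 in Δα-Cat and 9.16, 9.14 and 9.16 in α-Cat. The α-Cat arrays were tight (SD 0.01) and all lay below the Δα-Cat arrays, with a change of 0.22 (SE 0.07, adjusted p = 0.329, limma). SEC61B, a small subunit of the same pore, had a change of -0.08 with overlapping groups. WFS1, a membrane protein of the ER that restrains ATF6 and affects calcium, read 7.98, 8.16 and 7.99 in Δα-Cat and 7.80, 7.85 and 7.84 in α-Cat. Those groups were apart also (change 0.21, SE 0.07, adjusted p = 0.347). SEC24D, a cargo adaptor of the COPII coat on vesicles leaving the ER, went the other way, with 6.22, 6.25 and 6.03 in Δα-Cat and 6.49, 6.43 and 6.39 in α-Cat. No array of one group reached the other, and the change was -0.27 (SE 0.08, adjusted p = 0.274).

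**Figure D2:**
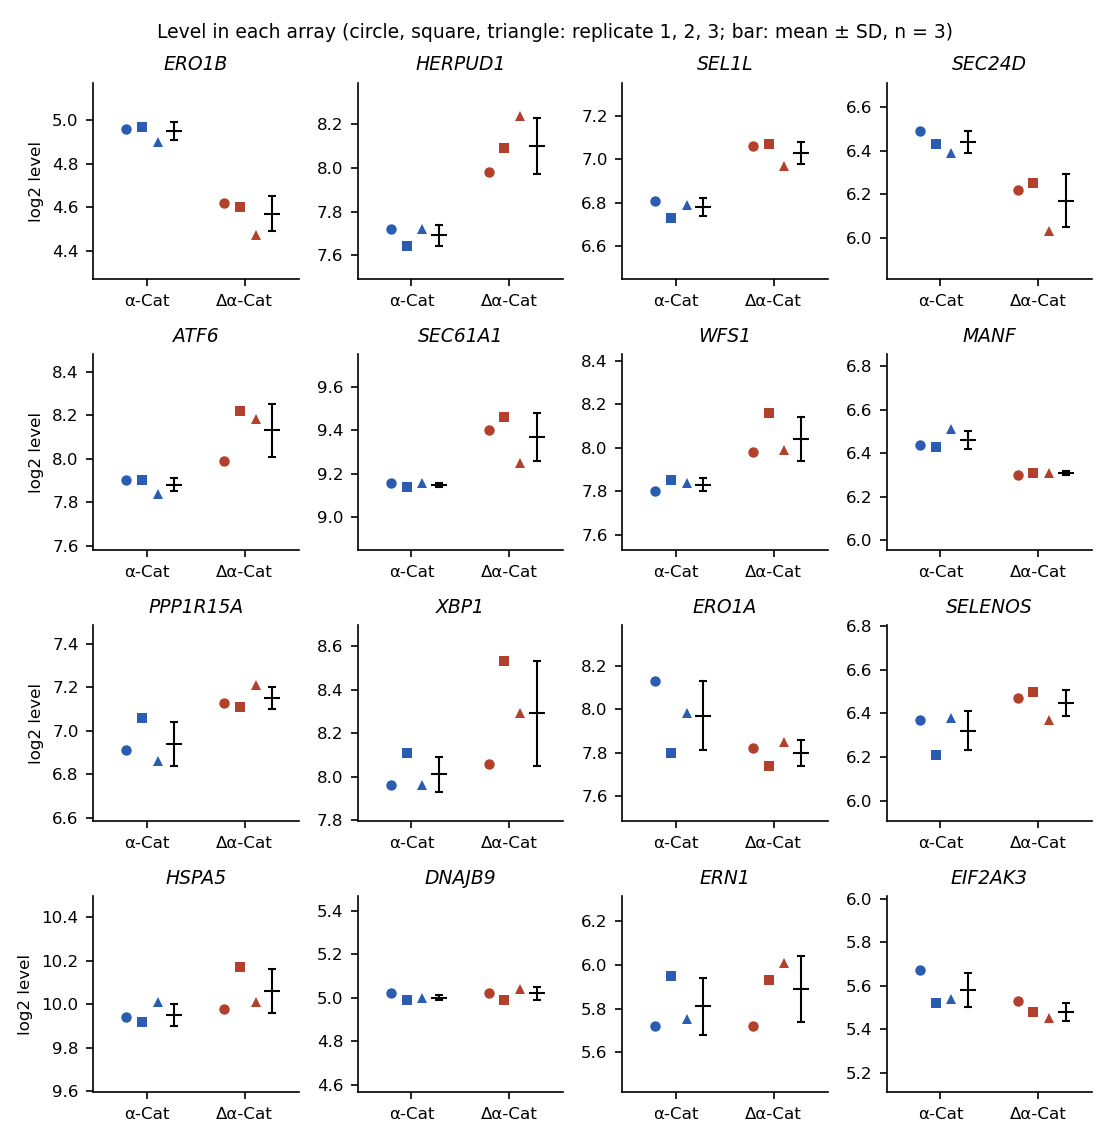
Log2 level (vertical axis, each panel spanning the same range) of 16 genes in the 3 α-Cat arrays (blue) and the 3 Δα-Cat arrays (red), with the mean ± SD of each group beside the points. ERO1B, SEC24D and MANF lie lower and HERPUD1, SEL1L, ATF6, SEC61A1, WFS1 and PPP1R15A higher in all Δα-Cat arrays, while the other panels show overlap.

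Set beside the promoter sites, the changes went in either direction. The 10 measured genes with an exact ERSE or ERSE-II match had changes from -0.38 (ERO1B) to 0.41 (HERPUD1). Their median was 0.03, and 6 of 10 were positive. The 22 measured genes with a window but no exact match ranged from -0.17 (ERO1A) to 0.25 (SEL1L, ATF6). For these the median was -0.01, and 11 of 22 were positive. Near matches were not searched, so such sites may lie among these 22. Across the genome 44 genes held an exact match of either element. Of the 36 of these that were measured, 0 were called by limma, where 0.623% of all genes were. An unadjusted limma p under 0.05 was reached by 6 of 36, beside 16.8% of the genes above the background level, a similar share. The median change of the 36 was 0.00. The windows of RefSeq starts may not be the starts used in DLD-1.

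Between arrays, the members did not vary as a block with the group. Replicate 2 of Δα-Cat held the highest value for 15 of 35 genes and lay above the gene's own mean of the 6 arrays for 26 of 35, with a median deviation of 0.06. Replicate 3 of Δα-Cat held the lowest value for 10 of 35, with a median deviation of -0.03. It nevertheless held the highest value for 4 genes, HERPUD1, PPP1R15A, ERN1 and DNAJB9. The α-Cat arrays had median deviations of 0.01, -0.02 and -0.02. The gap between the replicate 2 and replicate 3 arrays of Δα-Cat was thus wider than the difference between the groups in the median member. Within same-numbered pairs 18 of 35 genes kept 1 sign, 10 higher and 8 lower in Δα-Cat, where 44.5% of the genes above the background level kept 1 sign.

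**Figure D3:**
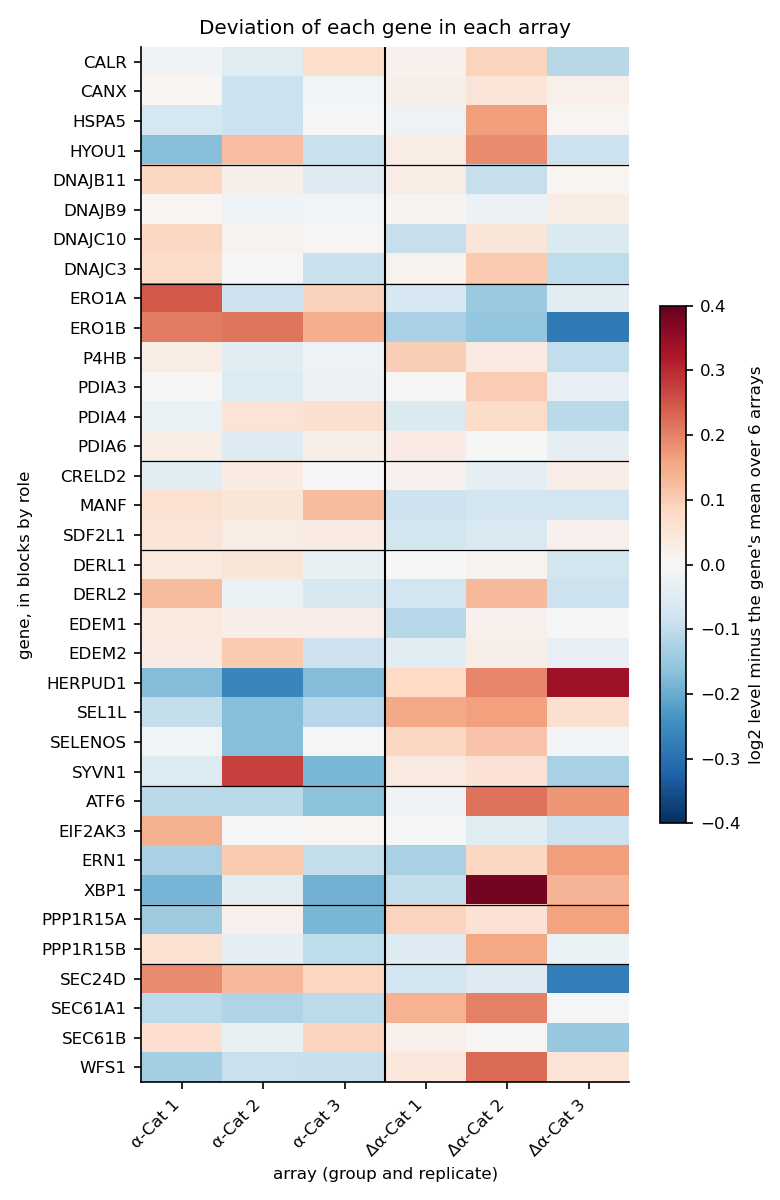
Deviation of the log2 level of 35 genes (rows, in blocks by role) from the gene's own mean over 6 arrays (columns), with red for above and blue for below the mean. The second Δα-Cat column is mostly red (26 of 35 genes above their mean), and rows such as HERPUD1, SEL1L, ERO1B and SEC24D change colour with the group.

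Other genes of the ER and of the stress response were read in the same fit from 7 lists with 187 measured genes, of which 2 were called higher and 0 lower. At an unadjusted limma p under 0.05 there were 24 higher and 6 lower, so 30 of the 187 passed it, where 16.8% of the genes above the background level did. Of the 24, 13 belong to the list of PERK and ATF4 output. Both called genes lost the call in the fit that pairs arrays by replicate number. EDEM3, a mannosidase-like protein related to EDEM1 and EDEM2, rose. It read 5.73, 5.73 and 5.83 in Δα-Cat and 5.28, 5.16 and 5.25 in α-Cat, a change of 0.53 (SE 0.06, adjusted p = 0.0286, limma, and 0.0604 with the replicate block). That made it the only called gene of 28 further degradation genes, of which 18 had a positive change with a median of 0.04. The call was also lost without any 1 of the 6 arrays (adjusted p 0.069 to 0.135).

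In the list of PERK and ATF4 output, genes that raise amino acid synthesis and, under lasting stress, cell death, 19 of 20 changes were positive with a median of 0.26. The groups lay apart and higher in 14 of 20, where 13.2% of the genes above the background level did so, and 13 had an unadjusted p under 0.05. PHGDH, which starts serine synthesis, was the only called gene and rose by 0.45 (SE 0.06; limma adjusted p = 0.0474, but 0.084 with the replicate block). That call was lost as well with cyclic loess (adjusted p = 0.0503), with median centring (0.0548) and without any 1 array (0.0934 to 0.21). Genes named here after their values were seen include ATF4, at 9.42, 9.41 and 9.43 in Δα-Cat and 9.18, 9.15 and 9.37 in α-Cat (change 0.19, adjusted p = 0.43). DDIT3, which encodes the death-related factor CHOP, read 4.75, 4.70 and 5.21 in Δα-Cat and 4.27, 4.26 and 4.28 in α-Cat. Its α-Cat levels lay below the background level, so no size of change is given for it. Over the 19 genes of the list whose means lay above the background level in both groups, a restriction chosen after seeing the data, 18 changes were positive, 13 genes had groups apart and higher, 12 had an unadjusted limma p under 0.05, and the median stayed at 0.26. ASNS, asparagine synthetase, had a change of 0.38, ATF3 of 0.14 and TRIB3 of 0.11. The difference between this list and the chaperone list was not tested. Whether PERK, which names the list, or another eIF2α kinase lay behind these values was not tested either.

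The other 5 lists held no called gene by limma, with 2 to 5 genes each at an unadjusted p under 0.05, and their medians lay between -0.03 and 0.01. Among 40 further folding enzymes and lectins, PRDX4, the ER peroxiredoxin, had a change of -0.43 (SE 0.06, adjusted p = 0.0521, limma), and DNAJC1, a membrane co-chaperone, of 0.33. PRDX4 lay at 6.48, 6.52 and 6.41 in Δα-Cat and 6.96, 6.90 and 6.84 in α-Cat, with groups apart. It passed with trended, robust eBayes (adjusted p = 0.0401). Of 22 further transducers, EIF2AK4 (GCN2, the eIF2α kinase that senses amino acid shortage) had a change of -0.36 (adjusted p = 0.0725), and ERN2, the IRE1 form of mucosal epithelium, of 0.30 (adjusted p = 0.507). Among 28 genes of translocation, signal peptide cleavage and glycosylation, the smallest p values belonged to MAGT1 (0.23) and DAD1 (-0.20), both of the oligosaccharyl transferase. In the COPII and ER-Golgi list of 32, they belonged to the cargo receptor ERGIC3 (0.20) and the COPII subunit SEC23A (-0.15), and 12 of 32 changes were positive. Of 17 genes of calcium stores and ER shape, ITPR2, a calcium release channel, stood at -0.66 (SE 0.10, adjusted p = 0.0727) and ATL3, which fuses ER tubules, at 0.28. PRDX4, EIF2AK4, ITPR2 and ATL3 passed when single-symbol clusters alone were tested (adjusted p = 0.013, 0.0161, 0.0224 and 0.0307).

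**Figure D4:**
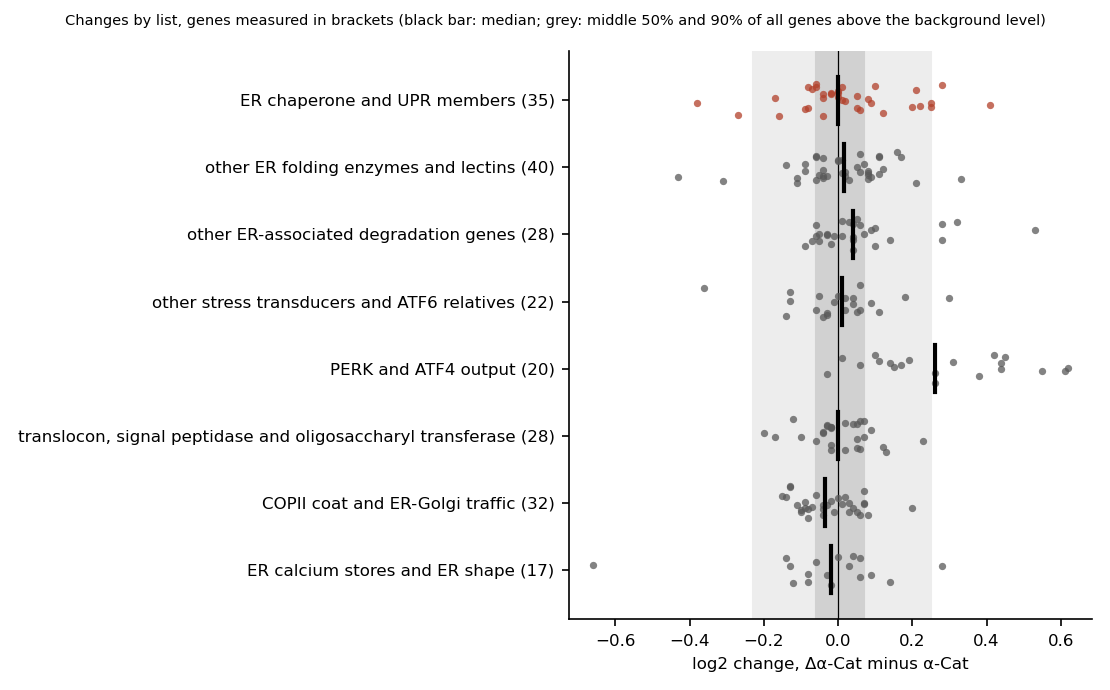
Log2 change (Δα-Cat minus α-Cat, horizontal axis) of each measured gene of the chaperone and unfolded protein response list (red) and of 7 other lists (grey points), with black bars for the medians and grey bands for the middle 50% and 90% of all genes above the background level. The chaperone list is centred on 0.00, and the PERK and ATF4 output list on 0.26. The rightmost point of the PERK and ATF4 list is DDIT3, whose α-Cat levels lay below the background level.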

How the data were processed

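Expression was measured on 6 Affymetrix arrays. The authors made the deposited values with Affymetrix Expression Console and RMA, as recorded per the submitters' processing notes. Tool versions and the genome build are not given in the sources used here, and neither is the scale. The deposited values were treated as log2 values, since intact rows lay between 1.26 and 14.24, although the table as a whole is only a score: 4987 of 70513 rows held a value without a decimal point and were left out. The other table was not used, as its 6 columns match no sample label. Array number limits the precision.

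Clusters were named from the platform annotation, updated to RefSeq symbols: 22686 had 1 symbol, 1385 several and 41455 none. limma 3.58.1 in R 4.3.3 (lmFit, eBayes) was fitted over all 65526 clusters without covariates and tested on simulated data. There it called 31 of 50 clusters changed 1.5-fold, 47 of 50 changed 2-fold and 12 unchanged clusters. Smaller changes were not simulated, and the largest change of a member, that of HERPUD1, was 1.33-fold. A member without a call may therefore still differ between the groups. The background level is the 95th percentile of 366 olfactory receptor genes. Residuals of same-numbered arrays correlated at 0.219, 0.214 and 0.128 over the clusters, all above 0.1. The numbers were therefore taken to pair the arrays, although no label explains the numbers. The main fit used the group alone and left this pairing out, so its p-values and calls do not allow for it. With the replicate block, run as an alternative, 156 clusters were called against 224 in the main fit.

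Values were given in full for the 12 members with the smallest p and for HSPA5, DNAJB9, ERN1 and EIF2AK3 whatever their values (HSP90B1 was also on that list), and from other lists for up to 3 called genes or, with none called, the 2 with the smallest p, or 1 for markers and cell cycle. Members and lists were chosen with earlier results of these data known, and the promoter motifs after the changes of the members had been seen. Alternatives were a replicate block, trended and robust eBayes, cyclic loess, median centring, single-symbol clusters only, omission of dim clusters, the mean of all clusters of a gene, and leaving out each array. Differences within same-numbered pairs, and counts of the PERK and ATF4 list without genes below the background level, were added after seeing the data. Python 3.11.15, numpy 2.4.6, pandas 2.3.3 and matplotlib 3.10.9 were used for tables and plots.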

Additional observations from a re-analysis of the deposited data

How the results depend on the processing

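Across all alternatives run, the median change of the members stayed between -0.004 and 0.022. With the replicate block the members had 0 calls and other ER genes 0 higher. Besides the loss of EDEM3 and PHGDH already given (0.0604 and 0.084), the block changed no call among the members and other ER genes named. With single-symbol clusters only, 2 members were called higher (HERPUD1, SEL1L) and 1 lower (ERO1B), other ER genes gave 6 higher and 3 lower, and 662 clusters were called in all, against 224, with fewer clusters tested. With dim clusters left out there were 0 higher and 1 lower among the members, 4 and 3 among other ER genes and 483 clusters called. Other ER genes had 1 higher with cyclic loess and 1 with median centring, and 1 lower with trended, robust eBayes; the cause was not tested. Without 1 array, members and other ER genes had 0 calls (0 to 0) and 29 to 120 clusters were called. CTNNA1 was called in every alternative. None of the 9 members with an unadjusted limma p under 0.05 changed sign in any alternative. Their groups did not overlap, so leaving out 1 array could not reverse the sign, and its constancy is no added support. Of the other 26, 10 changed sign when 1 array was left out: PPP1R15B (-0.01 to 0.09), EDEM2 (-0.09 to 0.01), DNAJB11 (-0.07 to 0.0013), P4HB (-0.02 to 0.08), DERL2 (-0.09 to 0.03), SYVN1 (-0.12 to 0.11), DNAJC3 (-0.04 to 0.07), CRELD2 (-0.02 to 0.03), CALR (-0.05 to 0.05) and PDIA6 (-0.03 to 0.02). CALR was also at 0.01 with cyclic loess. Array signal over background limits the dimmest member, ERO1B.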
